A study of Mus musculus with 4 samples.

Results

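The genes described here are the subunits of the transcription factor NF-kB, cofactors, and the inhibitors that NF-kB induces to shut itself off. They were measured in sorted basal cells of the embryonic mouse epidermis. The genes were chosen on earlier results of these 4 arrays, and both contrasts below entered that choice, so the differences are given as a description, with no p-value. Where a model fitted to all genes called some of them, that count is listed beside the share of all genes called and supports nothing. The list names 10 genes. They are the inhibitors Nfkbia and Nfkbie, the ubiquitin-editing inhibitor Tnfaip3 and its partner Tnip1, and the subunits Nfkb1, Nfkb2, Rela and Relb. The cofactors Nfkbiz and Bcl3 complete the list. Probe sets assigned to a single gene represented 9 of the 10 genes, by 18 probe sets out of 45037, while 18193 genes were represented in all. Nfkb1 was not analysed here.

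Each of the 4 arrays measured RNA of cells sorted for α6 integrin and for YFP from embryos at E16.5. The 2 arrays called cKO came from embryos with both Srf alleles floxed (SRF fl/fl), together with the reporter ROSA26 YFP fl/fl and the K14-Cre transgene. The 2 arrays called het came from SRF fl/+ embryos with the same reporter and the same Cre, which the series' design text calls WT. The strain label of the het arrays reads only Rosa26. Both groups thus carried Cre, driven by the promoter of keratin 14 and so active in basal epithelial cells, and the YFP reporter, and no array came from embryos without Cre. SRF, serum response factor, is a transcription factor of cytoskeletal and immediate early genes. The titles carry a number that recurs in both groups, giving het_1210, Ko_1210, het_1261 and KO_1261, and no label says what the number marks or how many embryos gave each sample, so the spread between arrays may be in part technical. Below, the first number stands for het_1210 and Ko_1210, and the second number for het_1261 and KO_1261.

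NF-kB is a dimer of Rel proteins that is held in the cytoplasm by IκB proteins. When a receptor such as those for tumour necrosis factor or interleukin 1 is engaged, the IκB kinase marks IκBα for destruction and the dimer enters the nucleus. There it turns on, among many genes, those of its own inhibitors, so transcripts of Nfkbia and Tnfaip3 are common readouts of recent NF-kB activity. In skin the pathway works in keratinocytes under inflammatory stimulation and, downstream of the ectodysplasin receptor, in the placodes of hair follicles.

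The promoters of Nfkbia and Tnfaip3, the readouts named above, are shown as examples. The sequences are the 250 bases before each gene's start in RefSeq's promoter table for GRCm38.p6, read 5′ to 3′ on the minus strand, which is the coding strand of both genes. Capitals mark matches of the κB consensus, the DNA element that NF-kB dimers bind, on either strand. The Nfkbia window lies at chr12:55492648-55492897 and the Tnfaip3 window at chr10:19015411-19015660.
Nfkbia: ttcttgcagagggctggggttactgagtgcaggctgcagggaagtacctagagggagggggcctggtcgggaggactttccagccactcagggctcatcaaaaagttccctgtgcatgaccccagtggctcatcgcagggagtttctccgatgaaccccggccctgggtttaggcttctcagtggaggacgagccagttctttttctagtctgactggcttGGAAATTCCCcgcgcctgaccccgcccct
Tnfaip3: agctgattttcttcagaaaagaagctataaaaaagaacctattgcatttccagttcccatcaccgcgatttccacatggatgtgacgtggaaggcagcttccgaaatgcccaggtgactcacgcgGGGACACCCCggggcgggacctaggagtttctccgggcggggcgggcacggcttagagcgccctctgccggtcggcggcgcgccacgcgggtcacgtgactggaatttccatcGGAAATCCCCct

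The match in Nfkbia began 29 bases before the start, and the matches in Tnfaip3 began 125 and 12 bases before it. RefSeq's table held promoters of 7 of the 10 genes, with 10 windows in all because Tnfaip3 and Nfkb2 have more than 1 start, and 7 of the 10 windows, in 5 of the 7 genes, held a match. Among all 32851 promoter windows of this length 3.899% held one. The matches of Tnip1, Nfkbie and the first Nfkb2 start are shown to set these variants of the element side by side, each on the strand of its gene, with overlapping matches given once. The windows of the 2 later Nfkb2 starts held 1 further match each, not shown.
Tnip1, 57 bases before the start on chromosome 11: GGGAATTCCC
Nfkbie, 106 bases before the start on chromosome 17: GGGGGATTCC
Nfkb2, 39 bases before its first start on chromosome 19: GGGAATTCCC
Nfkb2, 11 bases before its first start: GGGGCTTTCC

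The windows of Bcl3 and Rela, and the second Tnfaip3 window, held no match, which says only that these letters are not in those windows. The CArG box, the element that SRF binds, was found in 0 of the 10 windows and in 1.467% of all windows. These matches are a description of the sequence, and binding was not measured.

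Values are MAS5 signals, the array's brightness summarised per probe set on a linear scale, and differences are on the log2(signal + 1) scale. All 4 arrays had been scaled to a mean of 500 with 2% of probe sets trimmed at each end, so a value is relative to the rest of the array. In such bulk samples fewer cells of a type and less RNA per cell cannot be told apart. Srf was low on both cKO arrays: its brighter probe set gave 834 on het_1210, 1108 on het_1261, 47.9 on Ko_1210 and 80.4 on KO_1261, and its position relative to the floxed exon was not examined. The title numbers separated the arrays technically as well. The poly-A spike-in controls that monitor labelling were 2.44-fold higher on het_1210 than on het_1261 and 2.77-fold higher on Ko_1210 than on KO_1261, at 12 of 12 probe sets each, against cKO to het ratios of 0.942 and 0.865 within the first and the second number. The hybridisation controls, at 9 probe sets, differed in the same direction. Their median signal was 6306 on het_1210 and 5053 on Ko_1210, against 3258 on het_1261 and 3263 on KO_1261. The part of these technical differences in the differences between the numbers was not tested.

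Nfkbia encodes IκBα, the inhibitor that is destroyed and remade in each round of NF-kB activation. Its brightest probe set had a signal of 11156 on het_1210, 27590.4 on Ko_1210, 27474 on het_1261 and 28950.2 on KO_1261. The low array was het_1210, and the other 3 lay within a narrow range. Ko_1210 was thus 2.47-fold above het_1210, while KO_1261 was 1.05-fold above het_1261. Both cKO arrays lay above both het arrays, but by a small margin, since Ko_1210 and het_1261 were almost equal. The mean signal of the het arrays was 19310 ± 11540 (SD, n = 2) and that of the cKO arrays 28270 ± 962 (SD, n = 2). At each of the 5 Nfkbia probe sets het_1210 was the lowest array, but at the other 4 Ko_1210 lay below het_1261, so the genotypes overlapped there. Within the first number the log2 difference between cKO and het ranged from 0.92 to 1.42, and within the second from -0.14 to 0.14. The second number was above the first by 1.12 to 1.80 in het and by 0.07 to 0.67 in cKO.

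Tnfaip3 encodes A20, which removes and adds ubiquitin chains on signalling proteins upstream of the IκB kinase. Its brighter probe set gave 588 on het_1210, 1546 on Ko_1210, 3952 on het_1261 and 5436 on KO_1261. Both arrays of the second number were above both of the first, and within each number the cKO array was the higher one, by 2.63-fold in the first and 1.38-fold in the second. The step between the numbers was larger than that between the genotypes: 6.71-fold in het, a log2 difference of 2.75, and 1.81 on the log2 scale in cKO. The dimmer probe set gave 83.1, 104, 373 and 544 on het_1210, Ko_1210, het_1261 and KO_1261, with cKO above het by 0.32 and 0.54 within the first and the second number. The 2 probe sets thus shared the direction but differed on which number had the larger difference between the genotypes. Tnip1, whose product binds A20 and limits the same signal, gave 609.7 on het_1210, 718 on Ko_1210, 1030.3 on het_1261 and 1268 on KO_1261. It was higher in cKO by 0.23 and 0.30 within the numbers, and higher in the second number by 0.76 in het and 0.82 in cKO.

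**Figure D1:**
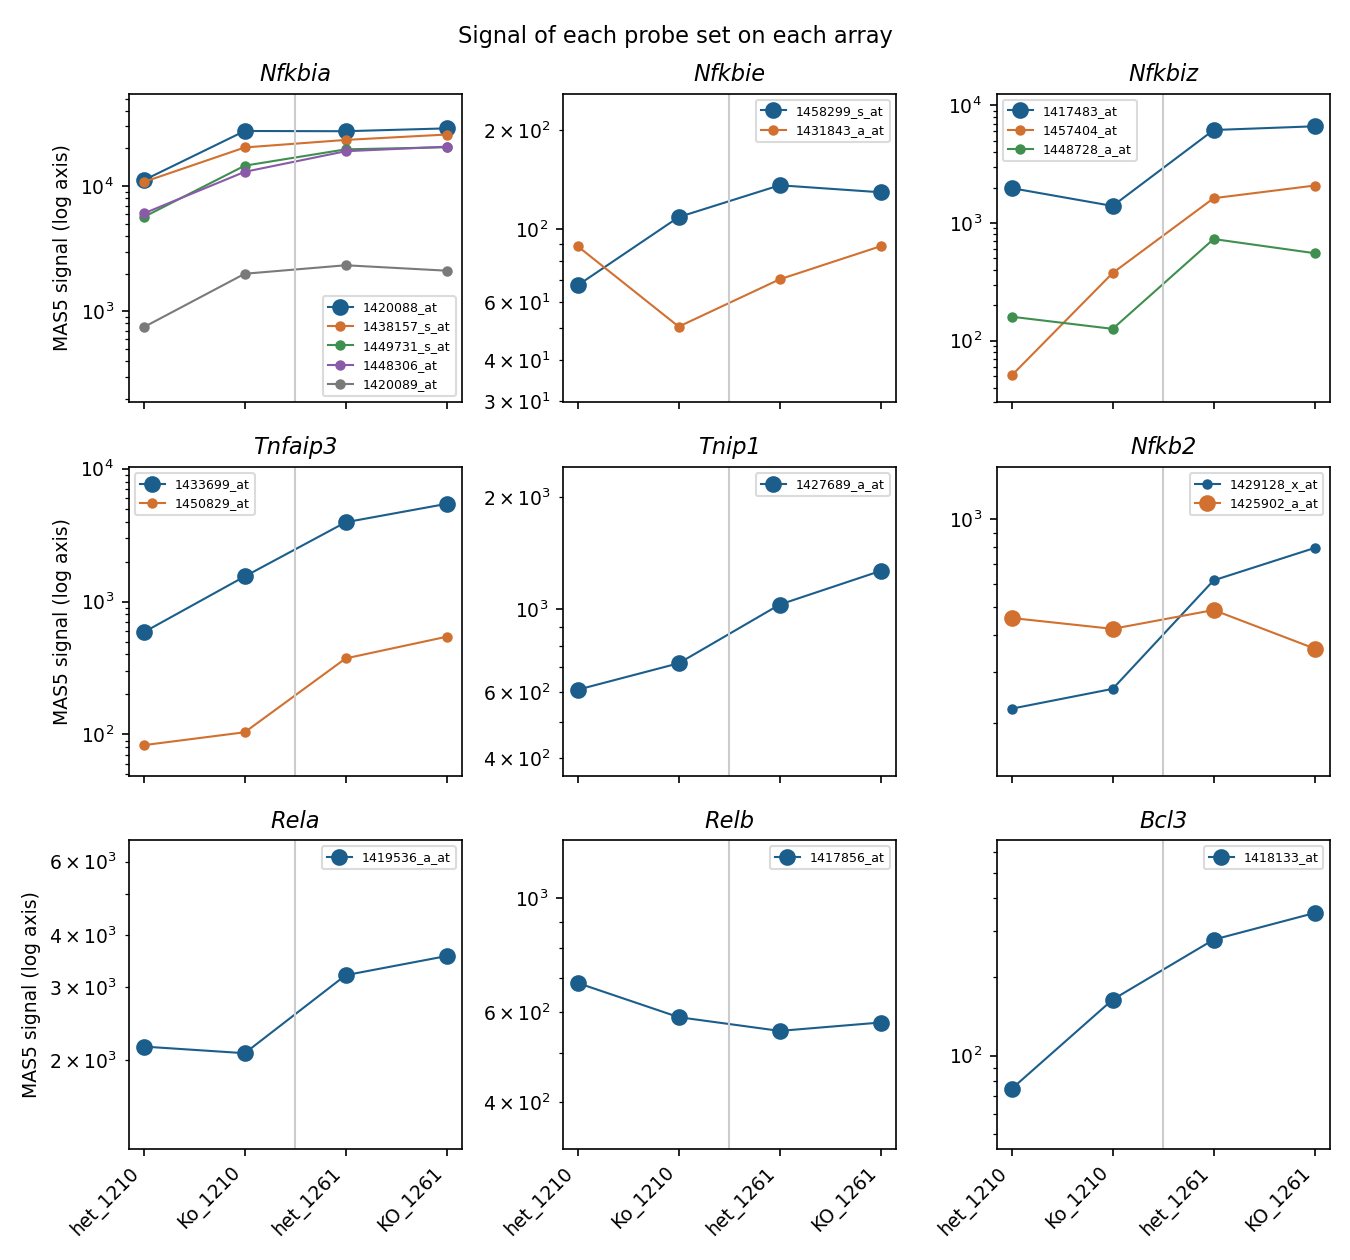
Signal of all 18 probe sets on the 4 arrays (logarithmic y axis, MAS5 signal; large points mark the probe set with the highest mean log2 signal of each gene, lines join the values of 1 probe set, and a grey line parts the first title number from the second). At its brightest probe set Nfkbia was low on het_1210 alone, at 11156 against at least 27474 elsewhere. At its other probe sets Ko_1210 also lay below het_1261. Tnfaip3, Tnip1 and Bcl3 were lowest on het_1210, then Ko_1210, het_1261 and KO_1261.

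Nfkbiz encodes IκBζ, an inducible nuclear IκB protein that acts as a coactivator of a subset of NF-kB target genes. Its brightest probe set gave 1979.6 on het_1210, 1397 on Ko_1210, 6175 on het_1261 and 6641 on KO_1261. The second number was again the higher, by 1.64 in het and 2.25 in cKO, and the genotypes differed by -0.50 within the first number and 0.11 within the second. A second probe set, with 159.8, 126, 731 and 554 on het_1210, Ko_1210, het_1261 and KO_1261, had genotype differences of -0.34 and -0.40. The third went the other way: it gave 50.7 on het_1210, below 65.9, the median signal used as the filter on probe set means, and 376 on Ko_1210, 1626 on het_1261 and 2083 on KO_1261. Here cKO was 7.29-fold above het within the first number and 1.28-fold above within the second. The 3 probe sets agreed on the step between the numbers and disagreed on the direction between the genotypes, so no direction between the genotypes is given for Nfkbiz.

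Nfkbie encodes IκBε, another inhibitor that NF-kB induces, and both of its probe sets had low signals. The brighter one gave 67.5 on het_1210, 109 on Ko_1210, 136 on het_1261 and 129 on KO_1261, again with het_1210 as the low array. The other gave 88.7, 50.6, 70.4 and 88.7 in the same order and had no such pattern. Bcl3, a nuclear IκB protein that works with the p50 and p52 subunits, gave 74.7 on het_1210, 164 on Ko_1210, 278 on het_1261 and 351 on KO_1261. Its arrays were in the same order as those of Tnfaip3, with cKO 2.18-fold above het in the first number and 1.26-fold above in the second.

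Among the subunits, Rela, the main activating subunit, gave 2154 on het_1210, 2077 on Ko_1210, 3199 on het_1261 and 3556 on KO_1261. The genotypes lay close together within each number, at -0.05 and 0.15, and the second number was the higher by 0.57 in het and 0.78 in cKO. Relb, the partner of p52 in the noncanonical pathway, gave 684 on het_1210, 586 on Ko_1210, 551 on het_1261 and 573 on KO_1261. At the brightest probe sets of the 9 genes it was the one whose arrays of the second number both lay below those of the first. Nfkb2 encodes p100, both an inhibitor and the precursor of p52, and its probe sets disagreed. The one with the higher mean log2 signal gave 458 on het_1210, 420.3 on Ko_1210, 488 on het_1261 and 359.8 on KO_1261, with genotype differences of -0.12 and -0.44. The other gave 224, 262, 617 and 797 in that order, higher in cKO by 0.23 and 0.37 and higher in the second number by 1.46 and 1.60.

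Between the title numbers the 9 genes, each taken at its brightest probe set by mean log2 signal, were mostly higher in the second number. In het 6 of 9 were higher by more than 1.5-fold, against 16% of the 11055 tested genes, and 0 were lower, against 20.9%. In cKO 5 of 9 were higher by this margin, against 9.29%, and 0 lower, against 11.6%. For 6 genes, namely Nfkbie, Nfkbiz, Tnfaip3, Tnip1, Rela and Bcl3, both arrays of the second number lay above both of the first, against 25.4% of all tested genes, and for Relb they lay below, against 41.5%. The median difference was 0.998 in het and 0.78 in cKO, where that of all tested genes was -0.13 in both. In limma, a linear model fitted to all tested probe sets, 5 of the 9 genes passed a Benjamini-Hochberg adjusted p of 0.05, against 20.5% of all genes. With the genotype as a block 6 passed, all higher in the second number, against 12.8% of all genes higher and 19.1% lower. Since the choice of genes rests on this contrast too, nothing is read from these counts. Without Ko_1210 the median of the 9 was 1.34 in place of 0.68 and 7 genes passed, and without KO_1261 only Nfkbiz and Tnfaip3 passed. Centring each array on its median gave -0.38 in place of -0.13 for the median over all genes and 0.44 in place of 0.68 for the 9 genes. Under both scalings 7 of 9 lay above 0, and 2 rather than 5 passed. Of all genes called between the numbers, 867 were higher and 1402 lower, and with that centring 360 and 2919.

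**Figure D2:**
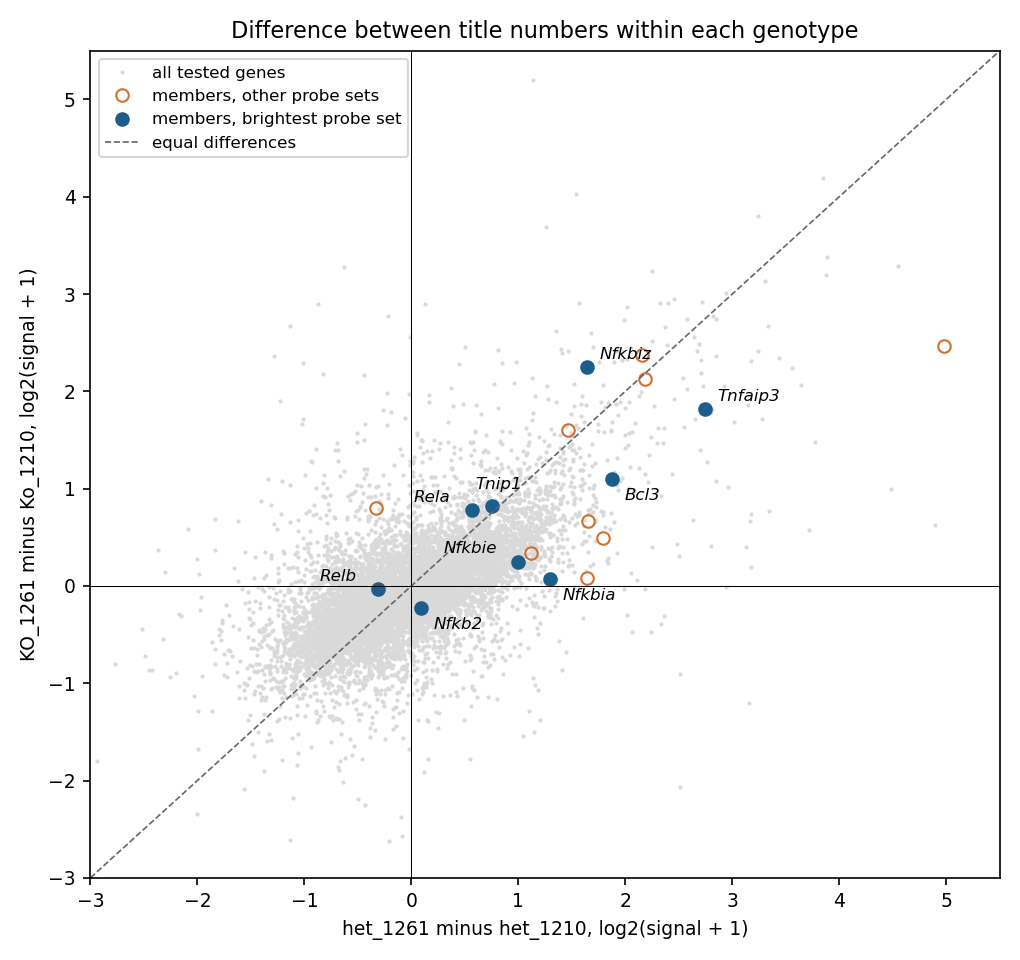
Difference between title numbers, second minus first on the log2(signal + 1) scale, in het (x axis, het_1261 minus het_1210) and in cKO (y axis, KO_1261 minus Ko_1210). Grey points are the tested genes, of which 8 lie outside the axes, filled blue points the brightest probe set of each of the 9 genes and open orange points their other probe sets. Nfkbiz lies above the line of equal differences (1.64 and 2.25), while Nfkbia (1.30 and 0.07), Tnfaip3 (2.75 and 1.81) and Bcl3 (1.88 and 1.10) lie below it.

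Between the genotypes the 5 largest differences, of either sign, lay within the first number. There Nfkbia, Nfkbie, Tnfaip3 and Bcl3, so 4 of 9, were higher in cKO by more than 1.5-fold, against 6.92% of all tested genes, and 0 were lower, against 9.14%. These counts use the brightest probe set of each gene. The dimmer probe sets of Nfkbie and Tnfaip3 were not higher by this margin, at -0.80 and 0.32, and that of Nfkbie was lower by more than 1.5-fold. Within the second number 0 of 9 passed this margin in either direction, against 2.08% higher and 5.18% lower among all genes. The median difference was 0.23 within the first number and 0.11 within the second, and that of all tested genes was -0.03 and -0.02. For 1 gene of 9, Nfkbia, both cKO arrays lay above both het arrays, against 8.18% of all genes, and for 1, Nfkb2, below, against 10.9%. At the other probe sets of both genes the genotypes overlapped. In limma without a block 0 of 9 passed, against 0% of all genes, where 66 of 11055 genes had an unadjusted p under 0.05. With the title number as a block Nfkbia and Tnfaip3 passed, 2 of 9, against 0.253% of all genes higher and 0.615% lower. Nothing is read from these counts, because the genes were chosen on this contrast. The call of Nfkbia ended with a robust prior variance and both calls ended without the variance trend.

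The mean difference between the genotypes also depended on which arrays were present. Leaving out 1 array both removes its value and unbalances the title numbers, and these were not separated. The median of the 9 genes was 0.27 with all arrays. It was -0.21 without het_1210, -0.07 without KO_1261, 0.65 without het_1261 and 0.73 without Ko_1210. For Nfkbia the mean difference was 0.69 with all arrays, 0.0408 without het_1210 and 1.34 without het_1261. For Tnfaip3 it was 0.93 with all arrays, -0.45 without het_1210 and 2.30 without het_1261. With 4 arrays the difference of the genotype effect between the numbers has no residual degrees of freedom and could not be tested. As a description, it was 1.23 for Nfkbia, 0.93 for Tnfaip3, 0.78 for Bcl3 and 0.75 for Nfkbie, and -0.61 for Nfkbiz, positive where the difference was larger within the first number. The median over the 9 genes was 0.31 and over all tested genes 0.005.

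**Figure D3:**
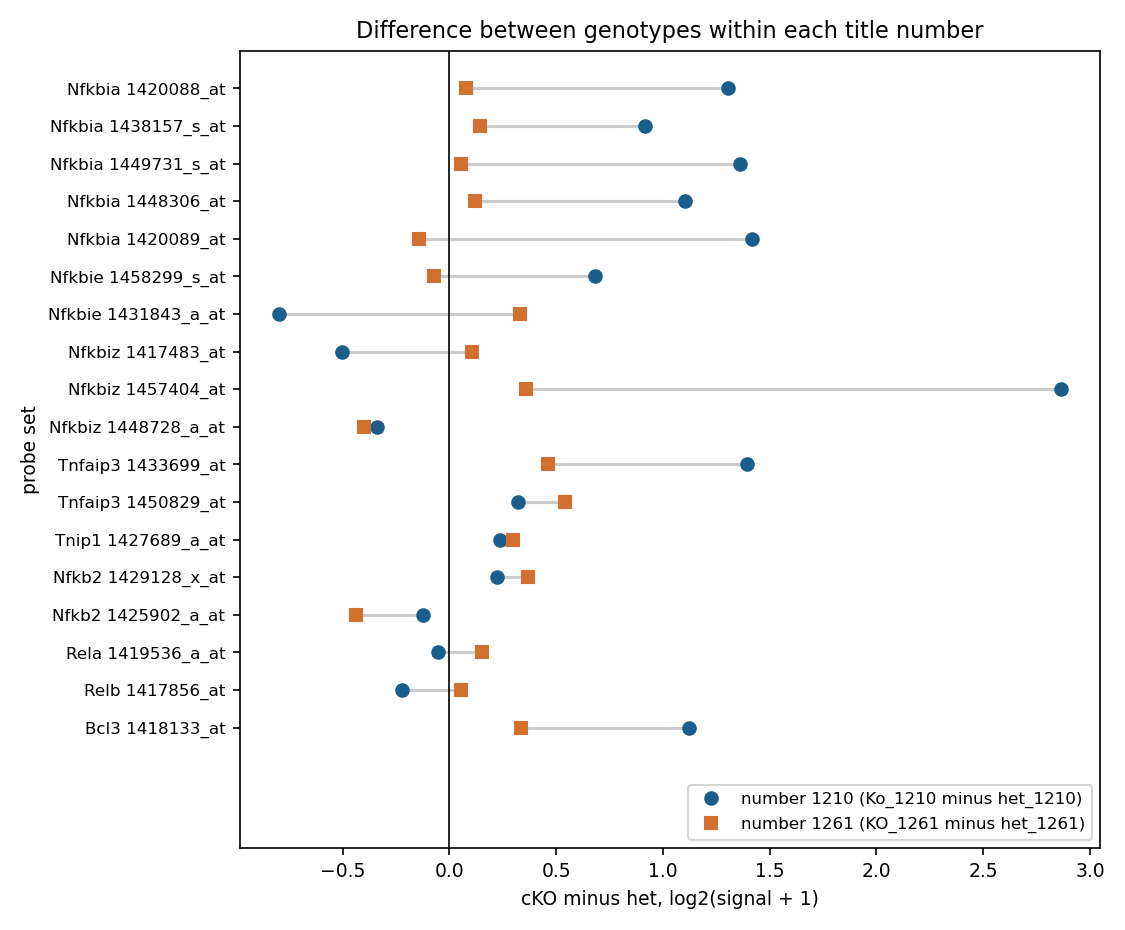
Difference between the genotypes, cKO minus het on the log2(signal + 1) scale, for each of the 18 probe sets (rows) within the first number (blue circles, Ko_1210 minus het_1210) and the second (orange squares, KO_1261 minus het_1261), each from 1 array per group. All 5 Nfkbia probe sets lie between 0.92 and 1.42 within the first number and between -0.14 and 0.14 within the second, while the 3 Nfkbiz probe sets differ in sign within the first.

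Other genes of the pathway were taken from lists by role. The lists too were chosen with earlier results of these data known, and many genes named from them by size of difference. The adjusted p-values given for their genes are therefore a description only. The list counts stand against the shares of all tested genes called with a block, 0.253% higher and 0.615% lower in cKO, and 12.8% higher and 19.1% lower in the second number. Among 7 tested genes of the Rel and IκB families outside the list, 0 passed between the genotypes in either limma fit. Between the numbers, with the genotype as a block, 2 were higher in the second number and 2 lower. Those higher were Rel, the c-Rel subunit of lymphoid and other cells, by 2.52 ± 0.25 (SE; adjusted p = 7.05e-10 in limma), and Nfkbid, an inducible nuclear IκB protein, by 2.79 ± 0.25 (5.57e-11). Nfkbid gave 76.9 on het_1210, 122 on Ko_1210, 547 on het_1261 and 839 on KO_1261, and was the higher in cKO within both numbers, 1.58-fold and 1.53-fold, without passing (adjusted p = 0.369 in limma with the block). The lower ones were Nfkbil1, with a difference of -0.81 ± 0.24, and Nkiras2, whose product slows degradation of IκB proteins, with -0.78 ± 0.17. Without the variance trend the adjusted p in limma with the block was 5.69e-03 for Rel and 5.21e-03 for Nfkbid. Nfkbil1 and Nkiras2 then did not pass (0.0744 and 0.0622).

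Of the 19 tested genes of the IκB kinase complex and its adaptor kinases and ligases, 0 passed between the genotypes, and 7 were higher and 4 lower in the second number with the genotype as a block. Map3k8, a kinase that p105 holds inactive, was higher by 2.98 ± 0.22, with 149 and 138 on het_1210 and Ko_1210 and 1155 and 1117 on het_1261 and KO_1261. Birc3, a ubiquitin ligase and itself an NF-kB target, was higher by 1.53 ± 0.18, while Traf2, an adaptor of tumour necrosis factor receptors, had a difference of -1.19 ± 0.21. Of the 12 tested brakes that act on ubiquitin or RNA, 0 passed between the genotypes and 5 were higher in the second number, 0 lower. They included the ribonuclease gene Zc3h12a, higher by 2.60 ± 0.34, and the deubiquitinase gene Cyld, higher by 1.22 ± 0.22. The call of Cyld ended without the variance trend (adjusted p = 0.0533 in limma with the block). Cyld gave 234, 406, 735 and 698 on het_1210, Ko_1210, het_1261 and KO_1261, so that het_1210 was its low array.

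Of the 19 tested ligands and receptors that signal to NF-kB, 0 passed between the genotypes, and 3 were higher and 0 lower in the second number, the former near the 12.8% of all genes. Tnf, the cytokine that engages the pathway, gave 217 on het_1210, 513 on Ko_1210, 991 on het_1261 and 1143 on KO_1261, the same order of arrays as Tnfaip3. It was higher in the second number by 1.67 ± 0.22 (adjusted p = 1.43e-07 in limma with the block, and 0.0311 without the variance trend). Within the first number cKO exceeded het by 2.36-fold and within the second by 1.15-fold, without passing (0.128). Of the receptors, Il1r1 gave 376 on het_1210 and 672 to 739 on the other arrays, and its difference passed neither between the genotypes nor between the numbers. Tnfrsf19, the brightest of this list, had a difference of 0.01 ± 0.14 between the genotypes and -0.07 ± 0.14 between the numbers. The median of this list between the numbers was -0.20, close to the -0.13 of all tested genes.

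Of the 26 tested target genes of NF-kB outside the feedback loop, 4 rose in cKO with the number as a block and 0 fell, while without it 0 passed. Cxcl10, an interferon- and NF-kB-driven chemokine, gave 468 on het_1210, 1600.0 on Ko_1210, 4736 on het_1261 and 10209.9 on KO_1261, and rose by 1.44 ± 0.17 (adjusted p = 8.21e-07 in limma with the block). Ccl20, a chemokine for cells that carry CCR6, rose by 2.11 ± 0.36 (adjusted p = 8.52e-04 in limma with the block). It gave 21.6 and 166 on het_1210 and Ko_1210 and 218 and 549 on het_1261 and KO_1261. The 21.6 on het_1210 lay below 65.9, the signal used as the filter on probe set means. The mean rise of Ccl20 and its adjusted p thus rest in part on a dim value. These chemokines differed by more than 1.5-fold within both numbers: Cxcl10 by 3.41-fold and 2.16-fold, and Ccl20 by 7.39-fold, from a dim signal, and 2.51-fold. Whether they differ in this from the inhibitors was not tested. Gadd45b, a stress-induced gene, rose by 0.76 ± 0.15 (5.47e-03), and Ier3, which is also an immediate early gene, rose by 0.78 ± 0.17 (0.0133). The call of Ier3 ended with a robust prior (0.151), and all 4 ended without the variance trend (0.736 each).

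Icam1, an adhesion molecule for leukocytes, was higher in the second number by 1.93 ± 0.14 and had cKO to het ratios of 1.18 and 1.43 within the first and the second number, without passing (adjusted p = 0.319 in limma with the block). Irf1 and Ptgs2, an interferon-response factor and cyclooxygenase 2, had genotype differences of opposite sign within the numbers: -0.50 and 0.48 for Irf1 and -1.33 and 1.10 for Ptgs2. Il6 was highest on het_1210, at 509, and gave 115 on Ko_1210, 232 on het_1261 and 238 on KO_1261. Between the numbers 13 of the 26 targets were higher in the second number and 1 lower with the genotype as a block. The median of the list was 0.64, and 0.40 with median centring, where 14 rather than 18 of the 26 were above 0.

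**Figure D4:**
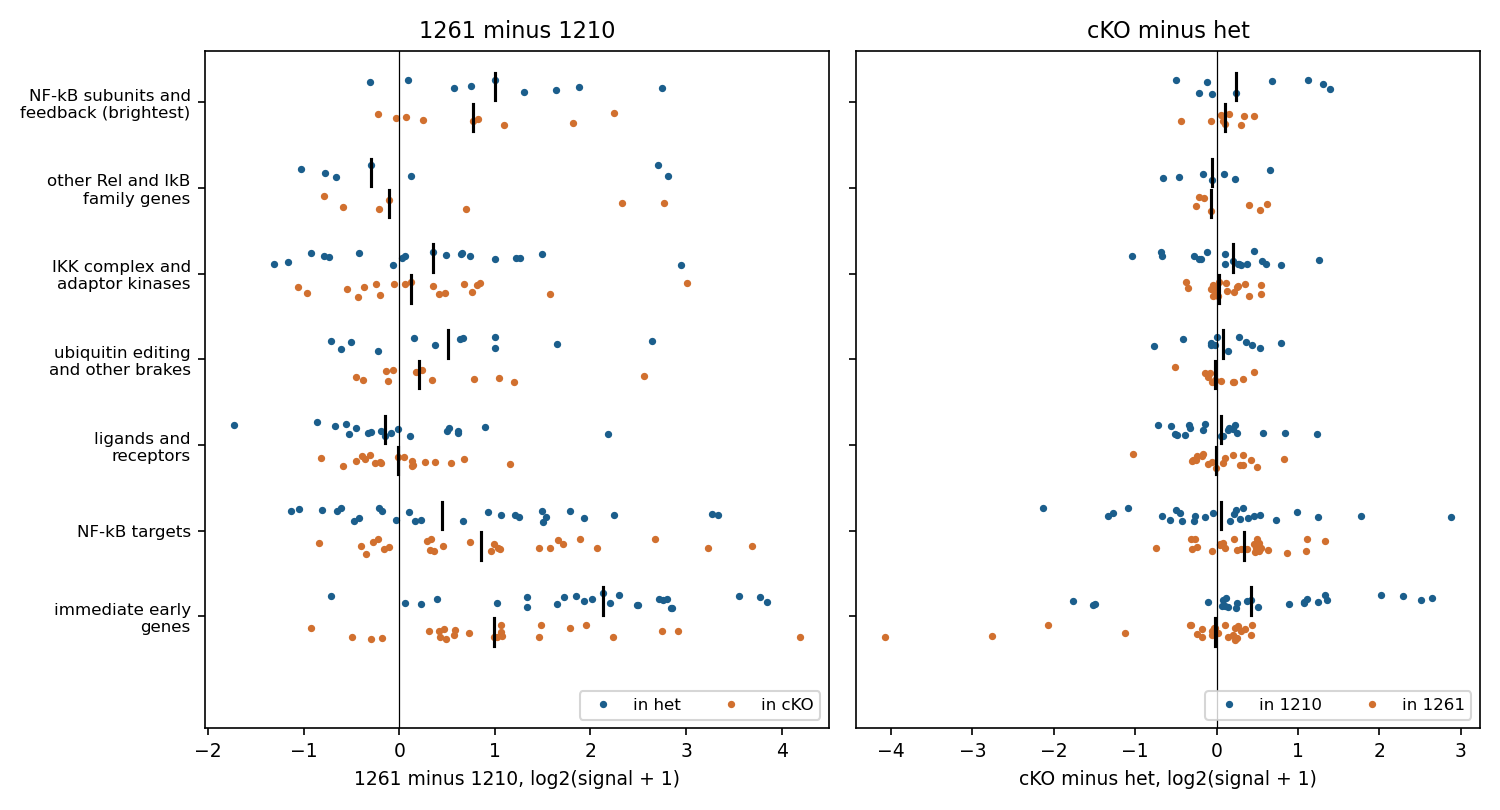
Differences of single genes (points) and medians (black bars) on the log2(signal + 1) scale, by list (rows): second number minus first in het (blue) and in cKO (orange) on the left, and cKO minus het within the first number (blue) and the second (orange) on the right. The immediate early genes had medians of 2.13 in het and 0.99 in cKO between the numbers, and the NF-kB targets 0.44 and 0.85.

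Immediate early genes are switched on rapidly by stress and growth factors, and several are shared with the NF-kB response. Between the numbers 22 of the 25 tested were higher in the second number and 1 lower with the genotype as a block, and their summed signal was 72230 on het_1210, 125800 on Ko_1210, 240700 on het_1261 and 217100 on KO_1261. Between the genotypes 6 rose and 3 fell with the number as a block, and 0 passed without it. Zfp36, a protein that destabilises cytokine messages, gave 1176 on het_1210, 6718 on Ko_1210, 16087 on het_1261 and 18756 on KO_1261, so that Ko_1210 lay between het_1210 and the arrays of the second number. Atf3, Dusp1, Jun and Ppp1r15a had the same low array, het_1210, with cKO above het by 4.06-fold, 6.29-fold, 4.87-fold and 2.56-fold within the first number and by 1.19-fold, 1.20-fold, 1.17-fold and 1.35-fold within the second. The sixth was Ier3. The 3 that fell were the SRF targets Egr1, Egr2 and Egr3. With a robust prior Egr3 alone of these 9 kept its call, and without the variance trend all 9 calls ended. Fosl1, an AP-1 subunit, and Nr4a1, an orphan nuclear receptor, were higher in the second number by 4.02 ± 0.19 and 2.82 ± 0.14 without passing between the genotypes. The part of this response in the levels of the NF-kB inhibitors was not tested.

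Genes with the most similar profile over the 4 arrays were ranked by the root mean square distance of their centred log2 signals. For Tnfaip3 these were Junb at 0.15, Mir22hg at 0.17, LOC102631979 at 0.18, Gm527 at 0.19 and Csrnp1 at 0.21. Junb, an AP-1 subunit, gave 917, 1982, 6217 and 6861 on het_1210, Ko_1210, het_1261 and KO_1261. For Nfkbia they were H2-Ab1 at 0.0415, Mgat4a at 0.0472, Taf3 at 0.0539, Map3k14 at 0.0628 and Ubr2 at 0.0723. Map3k14, which encodes the kinase NIK that directs processing of p100, gave 48.1, 116.5, 114 and 112 in the same order. H2-Ab1 was dim on all 4 arrays, at 32.4 to 88.8, and Map3k14 and Taf3 were dim on het_1210, at 48.1 and 66.9. Of the genes near Tnfaip3, Gm527 was dim on het_1210, at 40.4. The distances of these genes rest in part on dim values. A likeness over 4 arrays describes these arrays only.

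The cells had the markers of basal keratinocytes on all arrays: the summed signal of 8 marker genes, led by Krt5, Krt14 and Krt15, ranged from 141500 to 199600. Cells of the immune system express many NF-kB genes, so their markers are given beside the results. Of 12 immune markers 4 passed the filter on dim signals. These were Cd74, up to 281 on het_1261, Laptm5, up to 267 on het_1210, Csf1r, up to 172 on KO_1261, and Ctss, up to 129 on het_1210. Among those that did not pass, Ptprc, Cd3e and Cd207, which mark leukocytes, T cells and Langerhans cells, gave at most 43.6, 13.7 and 7.55 on any array. The rest of those that did not pass were mostly brighter. Lyz2 gave up to 118.6 on het_1210, Coro1a up to 92.6 and Tyrobp up to 78.2 on het_1261. Fcer1g gave up to 71.0 on KO_1261 and Cd52 up to 35.2 on Ko_1210. The summed immune signal was 1073 on het_1210, 534 on Ko_1210, 1042 on het_1261 and 835 on KO_1261. Of the 4 tested immune markers, Laptm5 fell by 1.47 ± 0.36 in cKO at its brightest probe set (adjusted p = 0.0367 in limma with the block). That call ended with a robust prior (0.0682) and without the variance trend (0.736). Other Laptm5 probe sets disagreed on the direction. On het_1210, Ko_1210, het_1261 and KO_1261, 1 gave 82.8, 133, 64.3 and 93.6, higher in cKO within both numbers. Another gave 70.1, 20.6, 58.5 and 40.3, lower in cKO within both. Markers of dermal fibroblasts had 2 of 7 tested genes that fell in cKO, Col3a1 and Twist2, both without a call under the robust prior, and a summed signal of 39770 and 35100 in het and 31750 and 32500 in cKO. Dcn, the brightest of them, made up a large part of that sum, with 19907 on het_1210 and 21841 on Ko_1210. Melanocyte markers summed to 1304 on het_1210 and 616 to 708 elsewhere, and endothelial markers to 337 on Ko_1210 and 442 to 587 elsewhere, with 0 of 4 tested genes passing between the genotypes in each. Within the first number, where the NF-kB inhibitors differed most, 5 of 7 fibroblast markers were lower in cKO by more than 1.5-fold, as were 3 of 4 immune, 3 of 4 melanocyte and 3 of 4 endothelial markers. The median differences of these lists were -0.96, -0.79, -0.94 and -0.84 there and -0.20, -0.26, -0.11 and -0.06 within the second number. That of the basal keratinocyte markers was 0.23 and -0.05. The part of these markers in the differences of the NF-kB genes was not tested.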

How the data were processed

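RNA was biotin-labelled with a 3' IVT kit and hybridised, per the labels. The deposited intensity values, linear MAS5 signals, were computed by the authors (MAS5 is named in the submitters' processing notes, with no version given in the sources used here). Of 45101 probe sets, 64 were controls, 34945 had 1 gene symbol in the platform annotation (34741 of them updated by gene identifier), 932 several and 9160 none. Names were used only from those with 1.

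Values were taken as log2(signal + 1). A probe set was tested when its mean log2 signal exceeded the median over probe sets, a signal of 65.9, which left 22518 probe sets and 11055 genes. A gene was represented by its brightest probe set on that mean. All 18 probe sets of the 9 genes passed. Testing used limma 3.58.1 (R 4.3.3): eBayes with a variance trend, two-sided, Benjamini-Hochberg over all tested probe sets, threshold 0.05. Groups were fitted without a block, and as an alternative with the title number, or for the comparison of numbers the genotype, as a block, leaving 1 residual degree of freedom beside 34.4 prior degrees of freedom, so its standard errors come largely from other probe sets. Since each title number holds both genotypes, within-number and blocked values stand beside the pooled ones. Fits were tested on simulated data. The simulated genotype change was the same in both title numbers, so this says nothing of differences that vary between them. Precision is limited by 2 arrays per group.

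The genes and all lists were chosen with earlier results of these data known. Of each list the text names genes past the threshold between genotypes with the block, some of up to 4 further genes by size of difference past 1.5-fold, and in places its brightest gene. Ptprc, Cd3e and Cd207 were added as defining markers after their values were seen, and then the other immune markers under the filter. Figures were drawn with matplotlib 3.10.9.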

Additional observations from a re-analysis of the deposited data

Results flagged for a closer look

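Some probe sets moved in opposite directions between the genotypes within the 2 title numbers, each from 1 array per group, so the difference was not tested. Values are log2 differences, cKO minus het, within the first number (het_1210 and Ko_1210) and then within the second (het_1261 and KO_1261). The fifth Nfkbia probe set differed by 1.42 and -0.144, and the brightest probe set of Nfkbiz by -0.503 and 0.105. The 2 Nfkbie probe sets crossed in opposite ways, at 0.68 and -0.0701 for the brighter and -0.798 and 0.33 for the dimmer. Rela differed by -0.0528 and 0.153 and Relb by -0.221 and 0.0542. Most of these pairs include a value near 0.

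Between the numbers, second minus first, the dimmer Nfkbie probe set differed by -0.329 in het and 0.799 in cKO. The Nfkb2 probe set with the higher mean log2 signal differed by 0.0907 in het and -0.224 in cKO. These were not tested either.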

How the results depend on the processing

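Between the genotypes, 0 of all genes and 0 of the 9 passed without a block. With the replicate block, the title number, 96 genes and 2 of the 9 passed, with a robust prior as well 50 and 1 (Tnfaip3), and with the block but no variance trend 0. Same-numbered arrays deviated together from their group means (r = 0.755 over 22518 probe sets), but no label says that a number marks shared embryos. The median of the 9 was 0.39 with median centring and 0.16 with a signal of at least 200. Relb turned to 0.0385 with median centring, and Nfkbiz and Nfkb2 to 0.35 and 0.00805 with the mean of the probe sets. Leaving out 1 array gave 0 to 2 genes called and medians of -0.21 to 0.73. The ranges were 0.0408 to 1.34 for Nfkbia, -0.19 to 0.80 for Nfkbie, -1.32 to 0.93 for Nfkbiz, -0.45 to 2.30 for Tnfaip3, -0.14 to 0.68 for Tnip1, -0.43 to 1.10 for Nfkb2, -0.34 to 0.44 for Rela, -0.24 to 0.0715 for Relb and -0.21 to 1.67 for Bcl3. Each such fit leaves one group with 1 array, assumed to vary like the other, and unbalances the title numbers.

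Between the numbers, 2269 genes and 5 of the 9 passed. With genotype as the replicate block 3517 genes passed, with a robust prior as well 3473, and with no variance trend 603 and 3 of the 9. Without a block, 1436 genes passed with no filter and 422 with no variance trend, where 1 of the 9 passed. With median centring 2 of the 9 passed and their median was 0.44. Nfkb2 was 0.73 as the mean of its probe sets. Leaving out 1 array gave 725 to 4681 genes, 2 to 7 of the 9, medians of 0.65 to 1.34, and -0.29 to 1.64 for Nfkb2. The cause of these shifts was not tested. Of the calls of single genes among the 9 between the numbers, 11 were lost and 2 gained (Nfkbia with the block, Nfkb2 with the mean of the probe sets) over the alternative settings, and over left-out arrays 4 were lost and 4 gained (Nfkbia without het_1261 or Ko_1210, Nfkb2 without het_1210 or Ko_1210). Between the genotypes 3 were gained, all with a block. Signals near or under 65.9, as for Nfkbie, are the least precise.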
